A study of Mus musculus with 47 samples.

Results

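The expression of 10 genes of the amino acid stress response was examined in single mouse induced pluripotent stem cells (iPSCs), out of 13947 genes with allelic counts. The genes are Psat1, Slc3a2, Phgdh, Asns, Chac1, Trib3, Ddit3, Atf4, Slc7a11 and Slc7a5, and all 10 were found in the table. The members were chosen by their known role and by the high Psat1 and Slc3a2 counts seen in well B01, so that the values of these genes in B01 are a description and carry no weight beyond that. The 47 cells came from 1 plate and were all labelled iPSCs. They were made by lentiviral reprogramming with Oct4, Sox2, Klf4 and Myc from embryonic fibroblasts of a cross between a Mus mother carrying an X-linked GFP reporter and a Cast father, and were grown in serum and LIF medium. The labels and the paper's cell culture methods add ascorbic acid to this medium. The reprogramming methods instead describe control iPSCs passaged without it, so that its presence is uncertain here. Reads over strain differences can therefore be assigned to a maternal Mus or a paternal Cast allele, and an effect of strain cannot be told apart from one of parent. The deposited column names place 23 cells in the class X-Mus X-Cast, with both X chromosomes. Another 15 cells kept only the Cast X (X-Cast O-Mus), and 9 kept only the Mus X (X-Mus O-Cast). The labels name neither separate cultures nor clones. A cell is therefore no replicate of a class, and no test between classes was made.

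When amino acids run short or misfolded protein accumulates, kinases phosphorylate the translation factor eIF2alpha, general protein synthesis slows, and translation of the transcription factor ATF4 goes up. ATF4 then raises transcription of genes for amino acid synthesis, amino acid import and tRNA charging, and of feedback and death-related factors such as TRIB3 and CHOP. Much of the control of ATF4 itself acts on translation, which RNA counts do not measure.

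ATF4 and its C/EBP partners bind composite elements with the letters TGATGNAA, read on either strand. These letters were searched in RefSeq promoters (GRCm38.p6), from 250 bases before to 50 bases after the start site. They were found in 1304 of 32851 promoters, or 3.97%. Of the members, 9 had a promoter in the table, and those of Asns, Chac1, Trib3 and Slc7a11 held the letters. These windows of 30 bases are shown because they are the members' sequence that the factor's known element matches. They are printed along the gene's own strand with the match in capitals, and TTNCATCA is the same element on the opposite strand.

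Asns, chr6:7693214-7693243, minus strand, first capital at -23 from the start site: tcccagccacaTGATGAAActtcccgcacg

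Chac1, chr2:119351038-119351067, plus strand, first capital at -193: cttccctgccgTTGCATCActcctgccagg

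Trib3, chr2:152344028-152344057, minus strand, first capital at 15: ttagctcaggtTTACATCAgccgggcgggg

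Slc7a11, chr3:50443661-50443690, minus strand, first capital at -66: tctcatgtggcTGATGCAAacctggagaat

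Slc7a11, chr3:50443642-50443671, minus strand, first capital at -47: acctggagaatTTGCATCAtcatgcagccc

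Both Slc7a11 windows overlap. No match was found in the windows of Psat1, Slc3a2, Phgdh, Ddit3 and Atf4, which says only that these letters are not in these windows. Promoters of aminoacyl-tRNA synthetase genes held the letters in 5 of 11 cases, those of further amino acid synthesis genes in 2 of 8, of transporters in 1 of 3, of ATF4-linked stress genes in 1 of 4, of serine and one-carbon genes in 0 of 3 and of endoplasmic reticulum chaperones in 1 of 9, against 2.71% of the genes that averaged 5 counts or more per cell. A match is a description of sequence and not evidence of binding in these cells.

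Allelic counts per cell ranged from 71682 to 216451 (median 167041), with 2918 to 5799 genes with a read (median 4941). A level is given below as counts per 10000 allelic counts of the cell. The cells held a median of 11 of 12 naive pluripotency markers, with a minimum of 8, and Pou5f1 had reads in every cell (levels 0.973 to 3.46). Of 8 fibroblast genes in the table, Col1a2, Prrx1 and Postn had no read in any cell, and 16 cells had any fibroblast count. Well E04 had the fewest counts, and its autosomes stood at a median of 0.673 times the level usual for each chromosome, so that the class folds, the number of high cells and the main correlations were also computed without it. Allelic counts were not single independent reads. Among allele values above 0 in the whole table, 13.6% were equal to 2 and 4.58% equal to 1. Every interval below covers counting error only, treats counts as independent and is therefore too narrow.

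Of the members, 7 averaged 5 counts or more per cell. The nearest to this limit were Slc7a5 above it, with a mean of 12 counts, and Chac1 below it, with 1.23. The levels of the members follow in the order of synthesis, transport, the transcription factor and its feedback and stress genes.

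Phgdh (chr3:98313170-98339990), which takes the serine pathway's entry step, ranged from no count in well E04 to a level of 10.8 in H02, with a median of 3.37. Psat1 (chr19:15904678-15947337), the aminotransferase of the following step, was read in every cell, from a level of 2.29 in H05 through a median of 13 to 30.4 in D04, which had 508 counts. Asns (chr6:7675169-7693254) encodes asparagine synthetase and ranged from a level of 1.29 in F02 through a median of 5.71 to 18.8 in E05. The synthesis genes were thus each detected in at least 46 of 47 cells, and each had its highest level in a different well.

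Slc3a2 (chr19:8706882-8723369), the heavy chain shared by several amino acid exchangers, ranged from a level of 2.70 in D01 through a median of 9.03 to 23.4 in E03. Its light chain partner Slc7a5 (chr8:121881150-121907694), which carries large neutral amino acids, had no read in 11 cells, a median level of 0.489 and a highest level of 3.18 in B01. Slc7a11 (chr3:49892526-50443614), the light chain of the cystine importer, had 21 counts in 10 cells and at most 4 in 1 cell. The heavy chain was therefore read everywhere, while reads of its light chains were found in some cells only.

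Atf4 (chr15:80255184-80257541) had no read in wells C04 and E04, a median level of 3.69 and a highest level of 7.78 in G02. Trib3 (chr2:152337422-152344032), a pseudokinase that feeds back on ATF4, was the most variable of the 7 members, with a coefficient of variation of 128.7% against 46.3% for Slc3a2, the least variable. It had no read in 10 cells, a median level of 0.899 and a highest level of 8.67 in F04, which is 9.64 times the median. The most variable member is thus a feedback gene with zeros and high cells in all 3 classes.

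Chac1 (chr2:119351229-119354381), which degrades glutathione, had 58 counts in 14 cells, with the most, 14 counts, in G01. Ddit3 (chr10:127290774-127296288), which encodes CHOP, had 35 counts in 5 cells, all of them X-Mus X-Cast. Its wells were B03 with 15 counts, C03 with 12, E03 with 4, and D04 and G03 with 2 each. None of the 24 cells with a single X had a Ddit3 read. The limit that a count of 0 allows, 3 counts over the class, is a level of 0.0119 in X-Cast O-Mus cells. For X-Mus O-Cast cells it is 0.0207, against a pooled level of 0.0931 (95% Poisson interval 0.0648 to 0.129) in X-Mus X-Cast cells. As 2 cells gave most of the counts, no difference between classes was read from them. Ddit3 overlaps Mars, on the opposite strand, at its end, and reads of the overlap cannot be told apart where strand is not recorded.

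**Figure D1:**
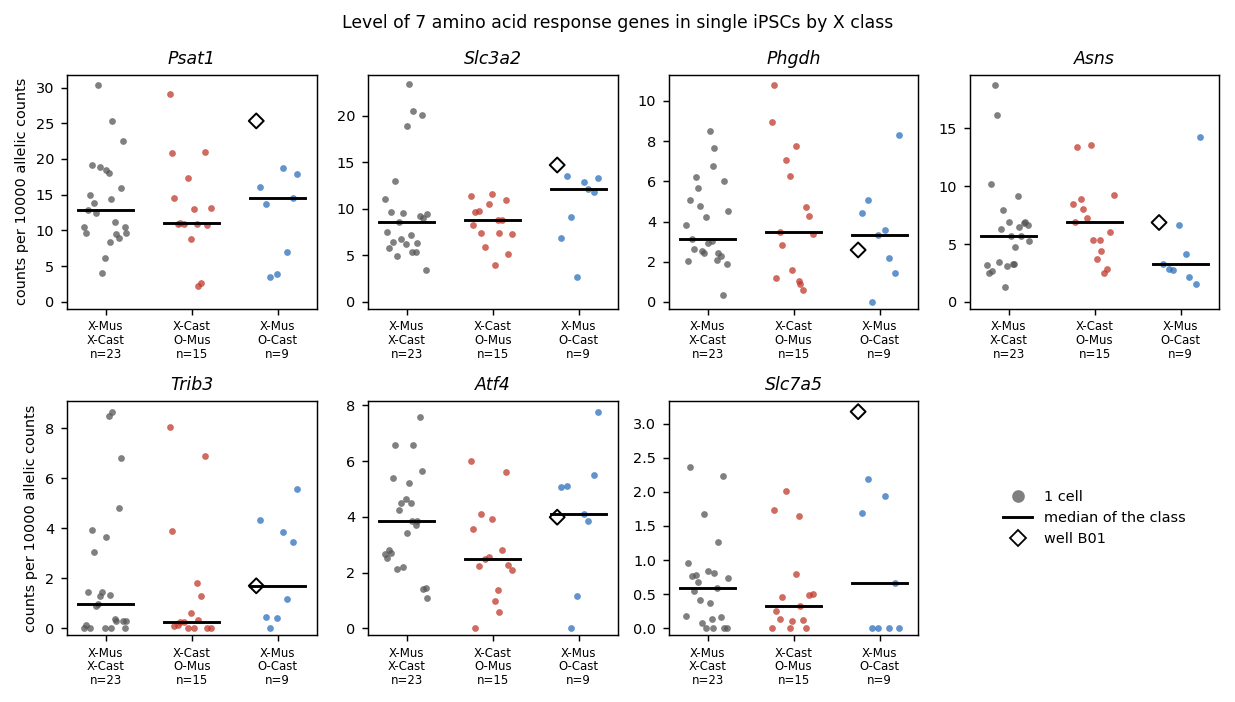
Level (counts per 10000 allelic counts) of 7 members in each cell by X class, with 1 point per cell, a black line at the class median and a diamond for well B01. Values of the classes overlap for every member, as they do for all but 0.0241% of genes in either comparison with X-Mus X-Cast cells, and B01 has the highest Slc7a5 level, 3.18, but not the highest Psat1 or Slc3a2 level.

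Cells with several members at a high level together were counted next. A cell was called high in a member when it had at least 10 counts and over 2 times the median level over cells. By this rule 21 cells were high in no member, 10 in 1, 9 in 2, 6 in 3 and 1 in 4. The members most often high were Trib3, in 15 cells, Slc7a5, in 11, and Phgdh, in 8, while Psat1 and Atf4 were high in 2 cells each and Slc7a11 in none. The share of the 4149 genes averaging 5 counts or more that are high by the same rule ranged from 12.6% to 26.5% over the cells (median 18.8%). Counted over members and cells, the 7 members that averaged as much were high in 47 of 329 pairs, or 14.3%, against 18.7% of the pairs of all such genes. The members were thus not high more often than other genes, and the cells high in several of them are given as a description.

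The 7 cells high in at least 3 members each included Trib3. Well G02, an X-Mus O-Cast cell, was high in Phgdh, Asns, Trib3 and Atf4, while 19.9% of all genes were high in it. Wells E03 and F04, both X-Mus X-Cast, were high in the same 3 members, Slc3a2, Phgdh and Trib3, with 20.0% and 19.9% of all genes high. Well A02, X-Cast O-Mus, was high in Psat1, Phgdh and Trib3, where 21.9% of genes were high.

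Of the remaining cells, B03 was high in Asns, Trib3 and Ddit3, beside 21.4% of genes. Its Ddit3 level rests on 15 counts, and Ddit3 is not among the genes this share is taken over. B06 was high in Slc3a2, Trib3 and Slc7a5, beside 16.8% of genes, and held only 6 counts of Phgdh. H02 was high in Phgdh, Trib3 and Slc7a5, beside 16.2%. Counting only the 7 members that averaged 5 counts or more, 6 cells were high in at least 3. High cells therefore differed in which synthesis or transport gene went with Trib3. Of the 7 cells, 4 had both X chromosomes, 2 had only the Cast X and 1 only the Mus X.

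Well B01 is an X-Mus O-Cast cell, and it was high in 1 member only, Slc7a5, beside 23.5% of all genes. Its Psat1 level was 25.3 from 343 counts, the third highest of all cells and 1.95 times the median. Its Slc3a2 level was 14.7 from 199 counts, the fifth highest and 1.63 times the median. Its Slc7a5 level of 3.18, from 43 counts, was 6.49 times the median. B01 thus stood near the top in both genes for which it had been singled out, without being the top cell for either.

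The other members in B01 were mixed. Its level was 0.767 times the median for Phgdh, which ranked 31 among the cells, 1.20 times for Asns at rank 17 and 1.08 times for Atf4 at rank 19. Trib3 stood at 1.89 times its median, a larger multiple than that of Slc3a2, but only at rank 16. Of the low members it had 3 counts of Chac1, at rank 6, 2 of Slc7a11, at rank 3, and none of Ddit3. Beyond the members, Nupr1, a small stress-induced chromatin protein, stood at 14.5 times the median, Ppp1r15a, the regulatory subunit that reverses eIF2alpha phosphorylation, at 6.53 times, and Slc1a5, the neutral amino acid transporter, at 6.05 times. At the other end, Herpud1, of endoplasmic reticulum protein degradation, Farsb, a subunit of phenylalanyl-tRNA synthetase, and Cbs, of cysteine synthesis, had no read in B01. The chaperone Pdia3 and the transporter Slc1a4, whose median level over cells is 0, had none there either.

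Several measures of the cell itself were near the end of their range in B01. Mitochondrial genes took 9.47% of its counts, against a range of 9.09% to 26.7% and a median of 22.1%. It had 135430 allelic counts and 4132 genes with a read, which ranked 42 and 44 of 47 cells. It had the highest summed fibroblast level of all cells, 1.92, which rests on 26 counts of Thy1 alone. Of the 4 dissociation and heat stress genes that averaged 5 counts or more, 3 were high in it, Junb and Dnajb1 among them at 3.17 and 3.16 times the median, and the summed level of that list, 9.01, ranked 4 of 47. Of the 12 naive markers, Klf4, Tfcp2l1 and Pecam1 had no read in B01, while 4 were high, with Dppa3 at 4.31 times, Prdm14 at 2.51 times, Dppa4 at 2.19 times and Tet1 at 2.10 times the median, and the summed naive level ranked 12 of 47. The part of these measures in the member levels was not tested.

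A member score was computed as the mean over the 7 members of the level divided by the member's own mean over cells. Members with a wider spread weigh more in it, such as Trib3 and Slc7a5, with coefficients of variation of 128.7% and 111.1%. Spearman's rho of a member with the score of the other members was 0.69 for Psat1, 0.64 for Trib3, 0.54 for Atf4 and 0.40 for Slc3a2. It was 0.31 for Phgdh, 0.18 for Slc7a5 and 0.15 for Asns. The member score was highest in F04, at 2.01, and lowest in E04, at 0.234, and B01 ranked as the seventh cell with 1.65. Among cells with both X chromosomes the score had a median of 0.826 and a range of 0.436 to 2.01. The median was 0.760 (0.378 to 1.81) where only the Cast X was kept and 1.27 (0.234 to 1.72) where only the Mus X was, so that the classes overlapped over most of their range. The score followed the number of allelic counts little, with Spearman's rho of 0.055 over 47 cells, and went with the mitochondrial percentage at a rho of -0.43. Mitochondrial counts are part of the denominator of a level. With autosomal counts outside chromosome 1 and the members as denominator, this rho was -0.33, F04 stayed the highest cell and B01 ranked as the ninth.

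**Figure D2:**
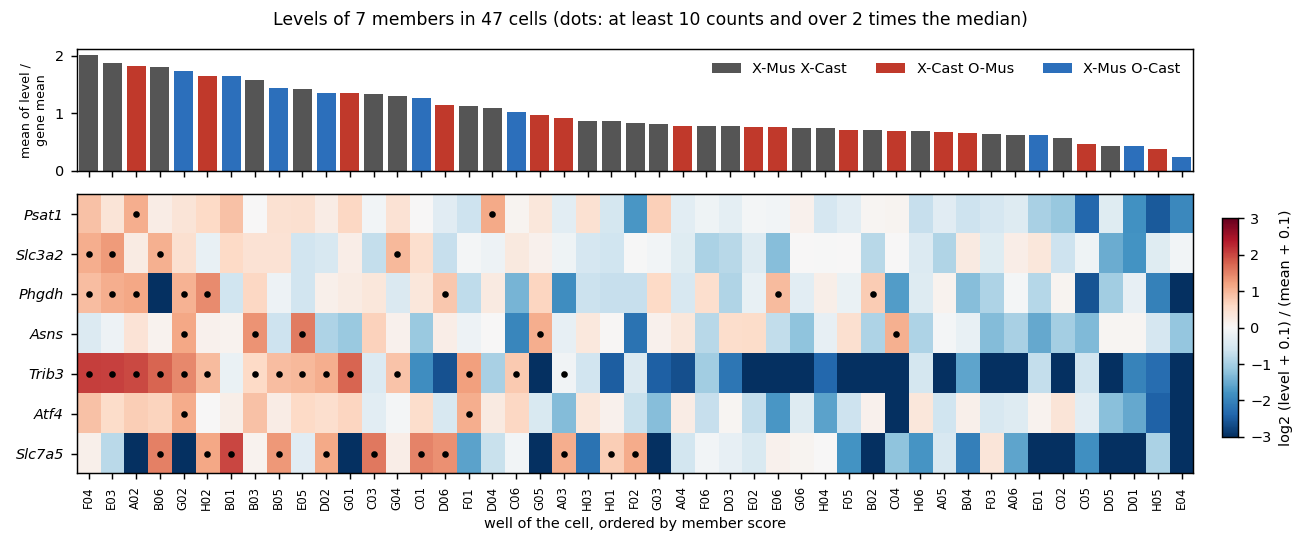
Bars give the member score of each of 47 cells, coloured by X class, and the heat map gives log2 of (level + 0.1) over (mean + 0.1) for 7 members in the same order of cells, with colours capped at the ends of the scale and a dot where a cell was high in a member. Trib3 has the strongest contrast between the left and the right of the map, and it also weighs most in the score by its wide spread. F04 is the highest cell and E04 the lowest, and the classes are mixed along the order.

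The members were next compared pair by pair over the cells. All correlations are descriptions over 47 cells that share 1 plate, and each level shares the cell's total as denominator. The median Spearman's rho over 21 pairs of members was 0.234, against 0.0115 over all 8605026 pairs of the genes that averaged 5 counts or more. A rho of at least 0.3 was found in 8 of 21 member pairs, against a background of 2.91% of all pairs. These correlations were largest for the factor and its feedback gene, Trib3 and Atf4, at 0.68.

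Psat1 had a rho of 0.50 with Phgdh, 0.45 with Trib3, 0.45 with Atf4, 0.39 with Asns and 0.36 with Slc3a2. Slc3a2 had a rho of 0.49 with Trib3 and 0.44 with Atf4, but 0.02 with Phgdh and -0.06 with Asns. Its partner Slc7a5 stayed between -0.00349 and 0.25 with every other member, and its rho with Slc3a2 was 0.11. The members therefore did not vary as 1 block. Psat1 went with both the synthesis genes and the Atf4 and Trib3 pair. Slc3a2 went with the latter pair and with Psat1 but not with the other synthesis genes. Slc7a5 went most with Trib3, at 0.25, a value that 6.0% of all pairs reach. No difference between correlations was tested.

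The Psat1 and Slc3a2 correlation of 0.36 became 0.33 without well B01, and it was 0.19 from Cast counts alone and 0.41 from Mus counts alone. Both genes lie on chromosome 19, and the level of that chromosome in the cell went with Psat1 at a rho of 0.16 and with Slc3a2 at 0.08. For Asns and the level of chromosome 6 this rho was 0.40. For the other members and their own chromosomes it lay between -0.06, for Phgdh, and 0.21, for Atf4. Without well E04 the Psat1 and Slc3a2 rho was 0.38, and the median over pairs was 0.18, or 0.19 without both B01 and E04. The rho of the member score was then -0.48 with the mitochondrial percentage and 0.66 with the synthetases described below, the median rho between the alleles was 0.59, and the same 7 cells were high in at least 3 members. With the autosomal denominator it was 0.22, with 8 pairs at 0.3 or more and a background of 2.88% of all pairs.

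**Figure D3:**
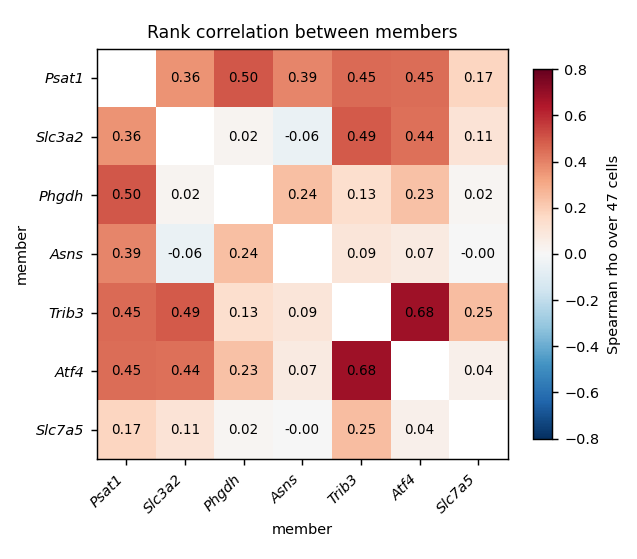
Spearman's rho over 47 cells between the levels of each pair of 7 members, printed in each square. Trib3 and Atf4 have the highest value, 0.68, and Slc7a5 and Asns hold most of the values near 0.

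The alleles of a gene give a second reading of the same cell. The rho between a member's Cast and Mus levels was 0.73 for Trib3, 0.69 for Atf4, 0.60 for Slc7a5, 0.60 for Asns, 0.52 for Phgdh, 0.46 for Psat1 and 0.30 for Slc3a2. The median over the 7 members was 0.60, against 0.206 over 4105 genes. Of those genes, 0.560% had a higher value than Trib3 and 31.4% a higher value than Slc3a2. A member score from Cast counts alone and one from Mus counts alone had a rho of 0.80 with each other. The cells with more Trib3 or Atf4 from one allele thus also had more from the other, whereas for Slc3a2 this held about as for many other genes.

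The allelic share differed widely between members. Pooled over all cells, the Mus allele gave 66.1% of Phgdh counts (95% Clopper-Pearson interval 64.3% to 67.7%), 47.3% of Slc7a5 (43.1% to 51.5%), 44.5% of Slc3a2 (43.4% to 45.7%), 42.1% of Psat1 (41.1% to 43%) and 41.2% of Asns (39.8% to 42.6%). It gave 18.7% of Atf4 counts (17.2% to 20.2%) and 14.4% of Trib3 counts (12.7% to 16.2%). The median over 4033 autosomal genes was 45.9%, with 5% of genes below 8.0% and 5% above 70.3%. Trib3 and Atf4, the pair with the highest correlation, were thus read mostly from Cast, and Phgdh mostly from Mus.

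Chac1 had all of its 58 counts from Cast, which allows a Mus share of up to 6.16%. Ddit3 had 45.7% of its 35 counts from Mus (28.8% to 63.4%). For Slc7a11 the Mus share was 19% of 21 counts, and the 4 Mus counts all came from well B04. Which positions were counted for each gene is not given in the sources used here, and their part in these shares was not tested.

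The pooled shares were not the share of each cell. In cells with at least 10 counts, Psat1 ranged from 8.81% Mus in well B02 to 96.4% in H05, where 27 of 28 counts were Mus. A second cell, F02, had 51 Mus counts and 2 Cast counts of Psat1. Chromosome 19, averaged over its other genes, stood at 50.5% Mus in H05, 45.4% in F02 and 44.7% in B02, near its median of 45.2% over cells. Both cells read almost only from Mus had low Psat1 levels, 2.29 and 4.02.

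Slc3a2, on the same chromosome, ranged from 9.09% Mus in E06 to 78.5%. The Mus shares of Psat1 and Slc3a2 had a rho of -0.16 over 47 cells, so that the alleles of these genes, apart on chromosome 19, did not move together. Asns had 28 counts in well C06, all from Cast, while chromosome 6 stood there at 47.8% Mus. For Phgdh 4 cells had over 90% Mus, and for Trib3 11 of 25 cells with at least 10 counts had under 10%.

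Between the X classes, the pooled share of Slc3a2 varied most among the 7 members, closely followed by Slc7a5. It was 45% Mus (43.4% to 46.6%) with both X chromosomes, 50.1% (48.0% to 52.3%) with the Cast X alone and 35.8% (33.4% to 38.2%) with the Mus X alone. Chromosome 19 had class medians of 44.7%, 45.9% and 48.0% in this order. Slc7a5 had 41.3%, 51.4% and 53.4% Mus in the same order, so that it was highest where Slc3a2 was lowest. Psat1 had 42.2%, 40.3% and 44.8% Mus, and Atf4 17.7%, 18.7% and 21%. These pooled shares weigh cells by their counts, and single cells of each class covered wide ranges. Well C06 alone gave 191 Cast and 21 Mus counts of Slc3a2 in the class with the Mus X alone. How far the pooled shares of other genes vary between the classes is not given here.

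**Figure D4:**
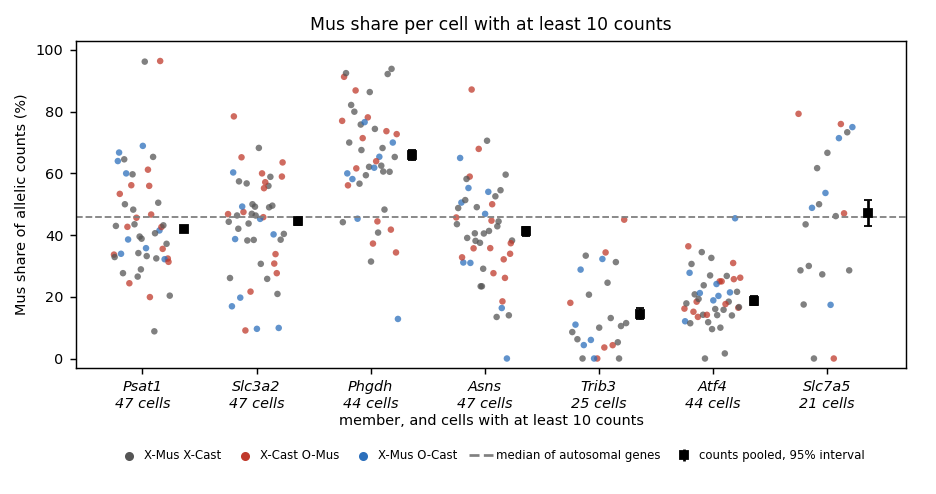
Mus share of the counts of 7 members (percent) in each cell with at least 10 counts, coloured by X class, with the share of pooled counts and its 95% interval as a black square and the median of autosomal genes as a dashed line. Trib3 and Atf4 lie below the line in every cell shown, Phgdh mostly above it, and Psat1 spreads from 8.81% to 96.4%.

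The design sets cells with a single X against cells with both. In X-Cast O-Mus cells, 0 of 7 members differed by 1.5-fold or more in mean level, where 16.2% of all genes were at least 1.5-fold higher and 14.6% at least 1.5-fold lower than in X-Mus X-Cast cells. The log2 fold was -0.51 for Atf4, from a mean of 3.86 to 2.70, and -0.42 for Trib3, from 2.09 to 1.57. It was -0.24 for Slc7a5, -0.23 for Slc3a2 and -0.11 for Psat1, with 0.12 for Phgdh and 0.15 for Asns. The median over members was -0.23, against 0.015 over all genes, and the values of the classes overlapped for every member. This holds for nearly every gene, since only 0.0241% of genes had cells that did not overlap in this comparison.

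Trib3 shows how much of this rests on few cells. Its median level was 0.958 with both X chromosomes, 0.237 with the Cast X alone and 1.70 with the Mus X alone, while its highest level was 8.67, 8.05 and 5.56. Compared by medians instead of means, the log2 fold of Trib3 in X-Cast O-Mus cells was -2.02, that of Slc7a5 -0.87 and that of Atf4 -0.63. By medians these 3 members were past 1.5-fold, as were 44.1% of all genes.

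In X-Mus O-Cast cells, 1 of 7 members, Slc7a5, was at least 1.5-fold higher, beside 18.9% of all genes, and none was as much lower, beside 19.3% of all genes. The mean Slc7a5 level was 1.07 against 0.678, a log2 fold of 0.66, and it became 0.26 without well B01. The other members had log2 folds between -0.37, for Asns, and 0.15, for Trib3. By medians Slc7a5 had a log2 fold of 0.17 and Slc3a2 one of 0.49. Trib3, at 0.83, and Asns, at -0.79, were then past 1.5-fold, beside 48.8% of all genes. Without well E04 the log2 fold of Slc7a5 was 0.83 and that of Psat1 0.05 in place of -0.08. The members called thus changed with the way the cells were averaged, and the cells of the classes overlapped for every member, as for all but 0.0241% of genes.

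The autosomes were then examined for cells with an unusual balance of the alleles, measured as the mean Mus share over the genes of a chromosome without the members. A difference of over 0.10 from the median of the chromosome was found in 5 cells. Wells B01, B04, C01 and G04 had a Mus share of 0.422 to 0.463 on chromosome 1, where the median over cells was 0.30, and their chromosome 1 level was 0.601 to 0.739 times the median. The medians of the other autosomes ran from 0.368 to 0.501, so that the median of chromosome 1 lay below all of them and these 4 cells were nearer to an even balance. No member lies on chromosome 1. Of the genes named above for B01, Farsb and Tfcp2l1, without a read, and Prdm14, at 2.51 times its median, lie on it. The number of copies of chromosome 1 in a cell was not measured. The member score of these 4 cells ranged from 0.665 to 1.65, within the range of 0.234 to 2.01 of the 43 other cells, and in the order named they ranked 7, 38, 15 and 14 of all cells.

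Well C01 also had a Mus share of 0.497 on chromosome 8, against a median of 0.383, at 1.78 times the usual level of that chromosome. Slc7a5 lies on chromosome 8, and in C01 it had 42 counts, 71.4% of them Mus, and the fourth highest level of all cells, 2.18. Its level was higher in B01, C03 and B06, where chromosome 8 was not off balance. B04 had a Mus share of 0.103 on chromosome 12, at 0.523 times its usual level, and H05 one of 0.344 on chromosome 18. No member lies on either. In B01, chromosome 15, which holds Atf4, stood at 1.44 times its median level, the highest of all cells, and Atf4 itself at 1.08 times.

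The genes whose levels went most with the member score were sought among the 4142 other genes that averaged 5 counts or more. A rho of at least 0.3 with the member score was found for 5.21% of these, and the median was 0.034. Highest were Arl14ep at 0.62, Ubap1l at 0.61, the glycolytic enzyme Pfkp at 0.61, Nupr1 at 0.61 and Nars, asparaginyl-tRNA synthetase, at 0.60. Lowest were Cox5b, a subunit of cytochrome c oxidase, at -0.55, Polr2g, a subunit of RNA polymerase II, at -0.50 and Eef1akmt1 at -0.50.

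Wider lists of the pathway held 82 genes, of which 71 were in the table and 51 averaged 5 counts or more. Of these 51, 44 had a rho above 0 with the member score and 23 had one of at least 0.3, and the median was 0.27. Among the 25 most like genes, 11 came from these lists and the other 14, with the top 3 among them, from none. The 11 genes from the lists include Lars, Sars and Cars, which charge tRNAs with leucine, serine and cysteine, and Shmt2, the mitochondrial serine hydroxymethyltransferase. Pycr1 and Aldh18a1 of proline synthesis, and Slc7a1, the cationic amino acid transporter, are also among these 11.

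The tRNA synthetases are the longest of these lists. All 17 that averaged 5 counts or more had a rho above 0, 10 had one of at least 0.3, and the median was 0.43. The mean level over these genes, scaled as for the members, had a rho of 0.68 with the member score, and 0.74 with Psat1 alone. Lowest were Hars and Dars at 0.03 and Farsa at 0.04. Cast levels of the members had a rho of 0.66 with Mus levels of 16 synthetases, and Mus levels of the members one of 0.50 with Cast levels of 17. No gene or allele count enters both sides there, but both are divided by the same total of the cell.

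The other lists were smaller. The 5 stress genes linked to ATF4, with Nupr1 and Ddit4 highest, had a median rho of 0.30 and were all above 0. The 6 further transporters had a median of 0.26 and were all above 0. Of the other synthesis genes 7 of 10 were above 0, with a median of 0.22, and of the serine and one-carbon genes 2 of 3 were, with a median of 0.46 and Shmt1 at -0.13. Taken as a scaled mean like the synthetases, each of these lists also went with the member score. The rho was 0.59 for the other synthesis genes, 0.56 for the stress genes, 0.53 for the transporters and 0.43 for the serine genes, beside 0.68 for the synthetases. Between Cast levels of the members and Mus levels of the list it was 0.64 for the stress genes, 0.53 for the transporters, 0.48 for the other synthesis genes and 0.44 for the serine genes. With the alleles exchanged these became 0.44, 0.48, 0.37 and 0.34. The lists hold 3 to 17 genes, and no difference between them was tested. Values for other gene sets of the same size are not given. The 0.43 of the serine genes is near the rho of 0.41 for the share of all genes high in a cell.

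Endoplasmic reticulum chaperones had a median rho of 0.11, with 6 of 9 above 0, and their scaled mean had a rho of 0.31 with the member score. Hspa5, the main chaperone of that compartment, was at -0.19, and Herpud1 was the exception at 0.56. The 12 naive pluripotency markers had a median of 0.06, although their summed level had a rho of 0.35 with the member score, and Zfp42 alone had one of 0.34. The 4 genes of dissociation and heat stress had a median of -0.12. The share of all genes high in a cell also went with the member score, at a rho of 0.41.

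**Figure D5:**
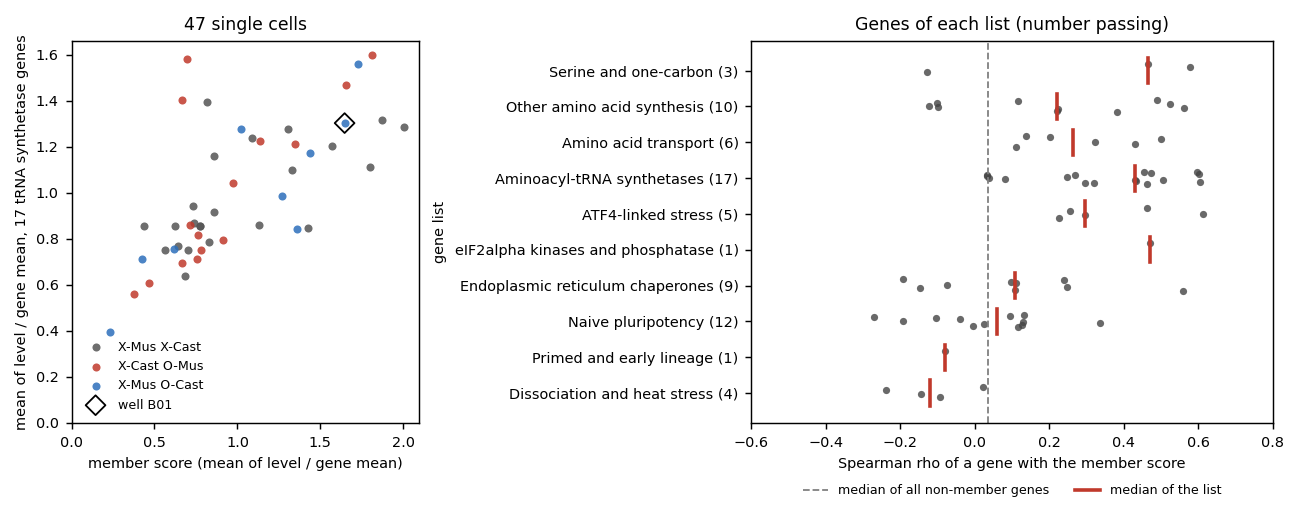
Left, the member score of each of 47 cells against the scaled mean level of 17 tRNA synthetase genes, coloured by X class, with B01 as a diamond. Right, Spearman's rho of each gene of a list with the member score, with list medians in red and the median of all 4142 other genes dashed. All 17 synthetases lie above 0, with a median of 0.43, and chaperones have a median of 0.11.

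Between the X classes, 11 of the 51 list genes that averaged 5 counts or more differed by 1.5-fold or more in X-Cast O-Mus cells, beside 30.9% of all genes, and 13 of 51 did in X-Mus O-Cast cells, beside 38.2%. Those with the strongest folds are given as values. In X-Cast O-Mus cells the log2 fold was -1.49 for Slc1a4, a transporter of alanine, serine and cysteine, -1.38 for Nupr1 and -1.38 for Ppp1r15a, with 1.096 for Cbs, 0.87 for Gpt2, an alanine aminotransferase, and 0.84 for Sesn2, a leucine sensor. In X-Mus O-Cast cells it was -2.70 for Slc1a4, -1.02 for Slc7a1 and -0.91 for Slc7a3, with 1.35 for Gpt2, 0.94 for Sesn2 and 0.92 for Psph, the last enzyme of serine synthesis. Slc7a3 is X-linked. Slc1a4 had a mean of 8.49 counts per cell and a median level of 0 over all cells, so that its folds rest on the cells with reads.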

How the data were processed

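Allelic single-cell RNA-seq of 47 sorted iPSCs was used. Sorting was into a GpC methylase mix, followed by G&T-seq capture and amplification of mRNA and single-end sequencing of Nextera XT libraries. The authors deposited unnormalized counts per gene, allele and cell. The submitters' processing notes name mm10, STAR 2.5.3a and SAMtools. The methods' account of allelic single-cell reads, given under Smart-seq2, has a masked genome, SNPsplit and counts at SNP positions of genes with at least 4 SNPs. It does not name this plate.

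Counts of both alleles were summed and divided by the allelic total of the cell (71682 to 216451), times 10000. Classes came from the deposited column names. Members and lists were chosen with earlier results of these data known. The named genes are the 10 members, the 3 highest and 3 lowest genes of the wider lists in B01 and for each single-X class, and the 5 genes most and 3 least like the member score, and further genes were named after their values were seen. Folds compare mean levels, and a minimum mean of 5 counts was required. Gene positions were taken from GENCODE M21. Calculations used scipy 1.17.1, pandas 2.3.3 and numpy 2.4.6 in Python 3.11.15, figures used matplotlib 3.10.9, and the scripts were tested on simulated data. No p-value was computed. Alternatives covered thresholds, denominators, thinning to 71682 counts, single alleles and left-out cells.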

Additional observations from a re-analysis of the deposited data

Results flagged for a closer look

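In X-Mus O-Cast cells, the Asns level of well G02, 14.3 (213 counts), stood apart from the next highest cell of its class at 6.87, which is a gap of 0.583 of the whole range. The Chac1 level of well C01, 0.468, rests on 9 counts, with the next cell at 0.222 and a gap that is also more than the remaining range. Both lie past Dixon's limit for 9 cells, and neither the other 7 members with a read in this class nor the member score held such a cell. For Chac1, 6 of the 9 cells had no read, so that the limit, which is made for continuous values, does not hold, and its value is a description. Cells are not replicates here. By chance about 1 group of normally distributed values in 20 is picked out this way, and the larger classes, with over 10 cells each, were not examined by it.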

How the results depend on the processing

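No paired analysis was possible because the results come from no test and the cells form 1 labelled group. In X-Cast O-Mus cells the number of members past the fold was 0 as reported, 2 at a lower threshold for the fold (beside 53.0% of all genes) and 3 with the median over cells (44.1%). In X-Mus O-Cast cells it was 1 as reported, 2 at the lower threshold (60.9%), 2 with the median over cells (48.8%), and 0 at a fold of 2, with the autosomal denominator or without well B01. Cells high in at least 3 members numbered 7 as reported, 12 at over 1.5 times the median and 1 at over 3 times. After thinning all cells to the lowest total 5 of the 7 remained, and with the autosomal denominator all 7 did. As a mean over cells, the Mus share was 44.4% for Psat1, 42.9% for Slc3a2 and 64.0% for Phgdh. Cells off balance on an autosome numbered 5 as reported, 19 at a difference of 0.07, 3 at 0.15 and 8 with genes of at least 20 counts. Of 84 member folds under other settings 6 had the other sign, none of them for a fold past the threshold. The 84 include folds of X-Cast O-Mus cells without well B01 or E04. Both wells are X-Mus O-Cast cells, so that leaving them out could not change those folds. The median rho between member pairs stayed between 0.13 and 0.43 over 12 alternatives, which include each class alone, thinning and the loss of wells, chosen in part after the data had been seen. Of the 25 genes most like the member score, 19 to 23 were shared with those reported under 7 alternatives. The 3 members below a mean of 5 counts, and the intervals, which treat counts as independent, limit what these data show.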
